A study of Mus musculus with 6 samples.

Results

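The Hox genes measured here were the 39 rows of the deposited count tables whose symbol is Hox, then a letter from a to d, then a paralogue number, out of 26214 rows in all. They form 4 clusters, HoxA with 11 genes, HoxB with 10, HoxC with 9 and HoxD with 9. The choice rests on the symbol alone and uses no measured value. Reads came from 6 libraries of colon tumours, 3 from Trim21 knockout mice, labelled Trim21 -/-, and 3 from wild-type mice, labelled Trim21 +/+. Mice of both genotypes had received azoxymethane (AOM), which mutates DNA in the colon, and dextran sulfate sodium (DSS), which inflames it, a pairing widely used to model cancer that arises in colitis. Trim21 encodes a ubiquitin ligase that also binds antibodies in the cytosol. The labels give neither strain, age nor sex, and they do not say from which site along the colon a tumour was taken. They name the samples biological replicates without saying whether each came from its own mouse. The p-values below set the difference between genotypes against the spread between these samples, which may not be a spread between mice.

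Hox genes encode homeodomain transcription factors that lie in clusters and carry a number by their place in the cluster. Genes of low number are switched on early and toward the head in the embryo, and genes of high number, from paralogue 9 on, are the posterior genes of the trunk, hindgut, limbs and genital tract. In the gut the most posterior genes mark the hindgut, and adult colon keeps expressing several of them in epithelium and in the mesenchyme around it. Hoxd13 and Hoxa13 shape the hindgut and anorectal region, and Hoxb13 is a marker of the distal colon, the rectum and the prostate.

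The knockout libraries held 17937821 to 19987295 counts and the wild-type libraries 27085599 to 29742757, so depth differed between the groups. Hox genes took 0.0557% to 0.0725% of the counts of the knockout libraries and 0.0582% to 0.0597% of those of the wild-type libraries. Epithelium was present in every library. A list of 9 epithelial genes such as Epcam and Cdx2 summed to 6932 to 7370 CPM in the knockout and to 5920.3 to 6894 CPM in the wild type. CPM are counts relative to the scaled library total. Krt8 and Cdh1, which are not limited to colon, averaged 1759 and 1574 CPM in the knockout, and Cdx2 19.1 CPM. The sum therefore does not test the colon label. Trim21 had 244, 345 and 248 reads in the knockout libraries and 887, 601 and 527 in the wild-type libraries, lower but not absent in the knockout, with a log2 fold change of -0.67 ± 0.24 and an adjusted edgeR p of 0.418. A pair of libraries stood apart. Knockout replicate 2 held most of the HoxD reads of the study. Wild-type replicate 3 held nearly all of the HoxC reads, together with 12 skeletal muscle genes that summed to at most 15.3 CPM in any knockout library, against 3377 CPM in wild-type replicate 3. Fold changes and sums of the HoxD genes are given with and without knockout replicate 2.

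Posterior genes of HoxB and HoxA led the Hox transcripts. Levels between genes are given as CPM per kilobase of exon (RPKM), as the mean over the 6 libraries. Hoxb13 stood first at 61.4 RPKM, with libraries between 48.8 and 66.0 RPKM, above every library of every other Hox gene. Hoxb9 followed at 31.9 RPKM, Hoxa9 at 29.2 RPKM and Hoxa6 at 25.8 RPKM. The lowest and highest libraries of these 3 genes overlapped, at 27.6 to 34.7 RPKM for Hoxb9, 22.4 to 40.9 RPKM for Hoxa9 and 16.7 to 32.8 RPKM for Hoxa6, so their order was within the spread. Hoxa10 averaged 15.6 RPKM, Hoxd13 12.5 RPKM and Hoxa5 12.2 RPKM, and here too the ranges overlapped. Hoxa11, Hoxa7, Hoxa2, Hoxa13, Hoxd10, Hoxa3 and Hoxd11 lay between 6.73 and 1.34 RPKM. All other members stayed under 1 RPKM on average.

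The clusters differed in which paralogues were read. In HoxA each of the 11 genes had reads in every library. In HoxB the reads came from both ends of the posterior group, since Hoxb9 and Hoxb13 together made up 197 to 235 CPM of a cluster total of 206 to 241 CPM over the 6 libraries. Hoxb2 to Hoxb8 lay at or under 3.52 CPM in every library. The HoxC cluster was nearly silent outside 1 library. A total of 26 members had a read in all 6 libraries. Hoxb1, Hoxc12, Hoxc13 and Hoxd1 had none in any, which allows at most 3 counts per library, or 0.101 to 0.165 CPM. Of the 39 members, 27 had enough reads to be tested, and the 12 untested ones were the 9 HoxC genes, Hoxb1, Hoxd1 and Hoxd3.

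**Figure D1:**
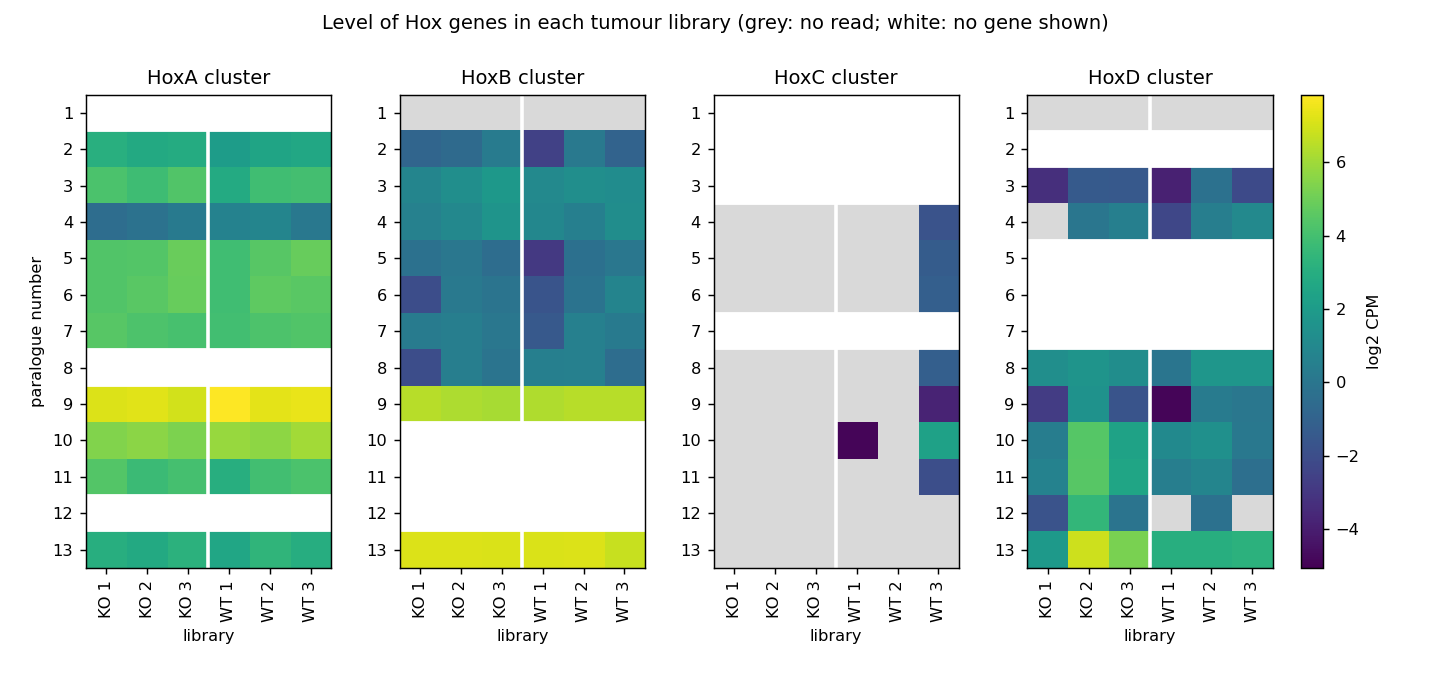
Level of the Hox genes in each library as log2 CPM, with a panel per cluster, paralogue numbers running down and the knockout (KO) libraries left of the wild-type (WT) libraries. Grey cells had no read and white cells are places with no gene shown. Hoxb9, Hoxb13 and Hoxa9 are bright in all 6 libraries, HoxC is grey outside WT 3 except for Hoxc10 in WT 1, and Hoxd10 to Hoxd13 are brightest in KO 2.

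No Hox gene passed the comparison of the genotypes. The quasi-likelihood test of edgeR, fitted over 16281 genes with Benjamini-Hochberg adjustment, called 0 genes of any kind, or 0% of those tested. The smallest adjusted p was 0.0646 over all genes and 0.373 among Hox genes, for Hoxa10. At an unadjusted p under 0.05 there were 1750 genes, 10.7% of those tested, and 5 of the 27 tested Hox genes. Hoxd10, Hoxd11 and Hoxd13 were higher in the knockout, beside 6.63% of all tested genes, and Hoxa9 and Hoxa10 were lower, beside 4.12%. DESeq2 called 238 genes higher and 90 lower in the knockout, 2.02% of those it tested, and 1 of them, Hoxd11, was a Hox gene. Limma-voom called 0 genes. Only Hoxa9 and Hoxa10 kept an unadjusted edgeR p under 0.05 when knockout replicate 2 was left out, and only Hoxa10 and Hoxd11 when wild-type replicate 1 was.

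Signs of the log2 fold change, knockout over wild type, are given by place in the cluster, beside 7793 positive values among all 16281 tested genes. The 5 tested genes of paralogues 1 to 3 all had a positive value, but Hoxb2 turned to -0.010 without wild-type replicate 1, and Hoxb3 to -0.12 without knockout replicate 3. Paralogues 4 to 8 had 7 positive values among 11 and a median of 0.098. Posterior paralogues 9 to 13 had 8 positive values among 11 and a median of 0.29. By cluster, the median was 0.11 for HoxA, 0.17 for HoxB and 2.29 for HoxD, beside -0.013 over all tested genes. The HoxD median was 0.77 without knockout replicate 2. The median of paralogues 4 to 8 turned to -0.14 and that of HoxB to -0.089 without wild-type replicate 1, and HoxB gave -0.056 without knockout replicate 3. Without wild-type replicate 1 the median of HoxA was -0.022 and that of paralogues 9 to 13 was 0.019. The posterior median was 0.12 without knockout replicate 1, 0.13 without knockout replicate 2. Leaving out wild-type replicate 3 gave 0.53 for the posterior genes and 0.29 for HoxA, and leaving out wild-type replicate 2 gave 0.23 for HoxA. In a bulk tumour, fewer cells of a type and less RNA per cell cannot be told apart, which holds for all values here.

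Groups rarely separated. Hoxa2 was the only Hox gene whose 3 knockout values all exceeded the wild-type values, where 9.43% of all tested genes did so, and Hoxa9 and Hoxa10 were the only ones with the reverse, where 8.47% did. These 3 of 27 genes stand beside 17.9% of all tested genes with groups that do not overlap in either direction. With fewer libraries more genes separate by construction. The count of Hox genes higher in the knockout was 5 without knockout replicate 1, where 16.6% of all tested genes were higher. It was also 5 without wild-type replicate 2, where 15.7% were. The count lower was 4 without wild-type replicate 3, where 15.6% of all were lower.

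Hoxd10 to Hoxd13 varied widely between the knockout libraries, and all 4 were highest in knockout replicate 2. HoxD lies on chromosome 2 of mm10 from 74668310 to 74765142, with Hoxd13 at the left end and Hoxd1 at the right, all on the plus strand. The sequences below show the 250 bases before the RefSeq start of these 4 genes, Hoxd13, Hoxd12, Hoxd11 and Hoxd10, and of Hoxd8, which was not high in that library. Hoxd11 has 2 such starts. Hoxd9 was also highest in knockout replicate 2, and its window is not shown. The sequences come from RefSeq on GRCm38.p6, the assembly that mm10 denotes, 5′ to 3′ on the plus strand. Capitals mark TTTAT, a core that Cdx and posterior Hox proteins prefer, on either strand, so that ATAAA is its match on the other strand.
Hoxd13, chr2:74667975-74668224: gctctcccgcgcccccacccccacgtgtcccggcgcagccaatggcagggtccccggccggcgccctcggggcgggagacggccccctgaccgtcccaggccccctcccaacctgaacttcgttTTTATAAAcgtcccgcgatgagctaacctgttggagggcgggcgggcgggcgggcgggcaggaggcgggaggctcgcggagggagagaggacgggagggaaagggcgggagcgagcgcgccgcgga
Hoxd12, chr2:74674763-74675012: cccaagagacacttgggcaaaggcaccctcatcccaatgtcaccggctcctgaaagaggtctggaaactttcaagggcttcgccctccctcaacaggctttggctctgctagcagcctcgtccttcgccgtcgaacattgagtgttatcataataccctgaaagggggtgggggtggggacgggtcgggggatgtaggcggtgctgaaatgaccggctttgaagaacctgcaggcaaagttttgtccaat
Hoxd11, left start, chr2:74679308-74679557: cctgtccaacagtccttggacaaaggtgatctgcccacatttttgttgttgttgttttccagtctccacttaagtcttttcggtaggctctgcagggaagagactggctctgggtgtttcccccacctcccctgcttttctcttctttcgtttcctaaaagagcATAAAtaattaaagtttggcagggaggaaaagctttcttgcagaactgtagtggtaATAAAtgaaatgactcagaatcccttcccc
Hoxd11, right start, chr2:74682073-74682322: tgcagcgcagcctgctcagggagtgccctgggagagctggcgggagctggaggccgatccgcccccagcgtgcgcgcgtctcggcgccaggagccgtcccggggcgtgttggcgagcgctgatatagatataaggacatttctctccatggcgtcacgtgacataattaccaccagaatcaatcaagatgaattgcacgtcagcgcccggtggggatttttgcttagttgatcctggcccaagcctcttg
Hoxd10, chr2:74691641-74691890: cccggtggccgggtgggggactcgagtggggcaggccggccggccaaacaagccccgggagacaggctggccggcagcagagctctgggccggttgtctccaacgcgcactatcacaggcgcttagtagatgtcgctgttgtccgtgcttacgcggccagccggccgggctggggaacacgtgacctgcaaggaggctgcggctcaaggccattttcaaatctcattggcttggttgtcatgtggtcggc
Hoxd8, chr2:74704365-74704614: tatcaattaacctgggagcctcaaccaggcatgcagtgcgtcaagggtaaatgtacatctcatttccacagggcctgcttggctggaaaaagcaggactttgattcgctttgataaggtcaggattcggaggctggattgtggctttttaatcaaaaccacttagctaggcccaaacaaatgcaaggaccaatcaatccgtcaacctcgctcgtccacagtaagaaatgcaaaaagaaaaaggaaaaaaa

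These windows had little in common in base composition. The Hoxd13 window was 74.4% G and C with 31 CpG, and its TTTAT lies in the longer run TTTATAAA, which also holds TATAAA, the form of a TATA box. The left Hoxd11 window was 44.8% G and C with 2 CpG and held ATAAA at 2 places. The windows of Hoxd12, Hoxd10 and Hoxd8 and the right Hoxd11 window held no match, nor did the Hoxd9 window, which is not shown. TTTAT occurred in 9 of the 24 windows known for 22 Hox genes and in 37.3% of 32851 mouse windows of the same length. TATAAA, searched on both strands and always overlapping a TTTAT match, occurred in 4 of 24 Hox windows and in 12.4% of all. Hox windows were richer in CpG, with a median observed over expected ratio of 0.721, than all windows, at 0.373. A match describes the letters of the window and says nothing of binding.

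Hoxd13, a factor of hindgut, limb and genital patterning, lies at 74668310 to 74671599. It had 73, 2148 and 748 reads in the knockout libraries and 242, 242 and 253 reads in the wild-type libraries. In CPM these were 3.62, 118 and 38.7 in the knockout, against 8.12, 8.19 and 9.38 in the wild type. The 3 wild-type libraries were almost equal, while the knockout libraries lay on both sides of them, with replicate 1 below and replicates 2 and 3 above. The log2 fold change was 2.64 ± 0.98 (SE), with an adjusted edgeR p of 0.420. Without knockout replicate 2 it was 1.31, with an unadjusted edgeR p of 0.158, and without knockout replicate 1 it was 3.20.

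Hoxd12, another posterior gene of limb and genital patterning, lies at 74675013 to 74677705. It had 6, 204 and 18 reads in the knockout libraries and 0, 25 and 0 in the wild-type libraries. The groups overlapped, since knockout replicate 1, at 0.298 CPM, lay under wild-type replicate 2, at 0.846 CPM, and knockout replicate 3, at 0.931 CPM, only just above it. Its log2 fold change was 3.83 ± 1.73, with an adjusted edgeR p of 0.485. It was 1.09 without knockout replicate 2. Without wild-type replicate 2 the wild type had no Hoxd12 read, and no fold is given.

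Hoxd11 and Hoxd10, which act in limb, kidney and motor neuron patterning, were high in the same knockout libraries as Hoxd13. Hoxd11, at 74679557 to 74687016, had 1.59, 22.5 and 5.74 CPM in the knockout, against 1.38, 1.76 and 0.779 CPM in the wild type. Its log2 fold change was 2.92 ± 0.90, with an adjusted p of 0.374 by edgeR and of 0.0122 by DESeq2. Without knockout replicate 2 its log2 fold change was 1.49, with an unadjusted edgeR p of 0.0602. Hoxd10, at 74691924 to 74695105, had 1.34, 22.0 and 5.27 CPM in knockout libraries and 2.11, 2.64 and 1.08 CPM in the wild type. Its log2 fold change was 2.29 ± 0.91, with an adjusted edgeR p of 0.444, and 0.77 without knockout replicate 2. In both genes knockout replicates 2 and 3 exceeded every wild-type library, and knockout replicate 1 lay within the wild-type values. Their order among the wild-type libraries differed from that of Hoxd13, since wild-type replicate 3 was the lowest library for both and the highest wild-type library for Hoxd13.

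The pattern ended toward the right of the cluster. Hoxd9, a posterior gene with few reads here, had 3, 53 and 6 reads in the knockout libraries and 1, 36 and 28 in the wild-type libraries. Its log2 fold change of 0.55, with an adjusted edgeR p of 0.891, became -1.72 without knockout replicate 2. Hoxd8 had 2.53, 3.07 and 2.38 CPM in knockout libraries and 0.973, 3.32 and 3.26 CPM in the wild type, so that knockout replicate 2 did not stand out. Hoxd4, a gene of hindbrain and neck patterning, had 0, 0.988 and 1.45 CPM in knockout libraries and 0.201, 1.35 and 2.00 CPM in the wild type. Knockout replicate 1 and wild-type replicate 1 were the low libraries of Hoxd4, 1 in each group. Hoxd3 had 2 to 7 reads per knockout library and 2 to 25 per wild-type library, and it shares 388 exon bases with Hoxd4 and 53.09% of its exons with Gm28230, a gene that spans both, so these counts are uncertain.

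Set along the chromosome, the excess in knockout replicate 2 covered Evx2 to Hoxd9. Evx2, a homeobox gene beside Hoxd13 and outside the cluster proper, had 0, 134 and 34 reads in the knockout libraries and 12, 7 and 36 in the wild-type libraries. In knockout replicate 2 the CPM divided by the median of the other 5 libraries was 18.3 for Evx2, 14.4 for Hoxd13, 37.6 for Hoxd12, 14.2 for Hoxd11, 10.4 for Hoxd10 and 9.38 for Hoxd9. The same ratio was 1.22 for Hoxd8 and 0.730 for Hoxd4. Lnpk and Mtx2, the genes that flank the HoxD region on either side, gave 1.02 and 0.877. These ratios depend on low medians for Hoxd12, Hoxd9 and Evx2, at 0.298, 0.310 and 0.403 CPM. Set against the highest of the other 5 libraries, the excess in knockout replicate 2 was smaller. That ratio was 4.19 for Evx2, 3.05 for Hoxd13 and 12.03 for Hoxd12. It was 3.92 for Hoxd11, 4.16 for Hoxd10 and 2.39 for Hoxd9. The flanking genes were picked after the HoxD values were seen. In knockout replicate 3, Evx2, Hoxd13, Hoxd11 and Hoxd10 exceeded every wild-type library by CPM, Hoxd12 lay just above wild-type replicate 2, and Hoxd9, at 0.310 CPM, lay under wild-type replicates 2 and 3.

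**Figure D2:**
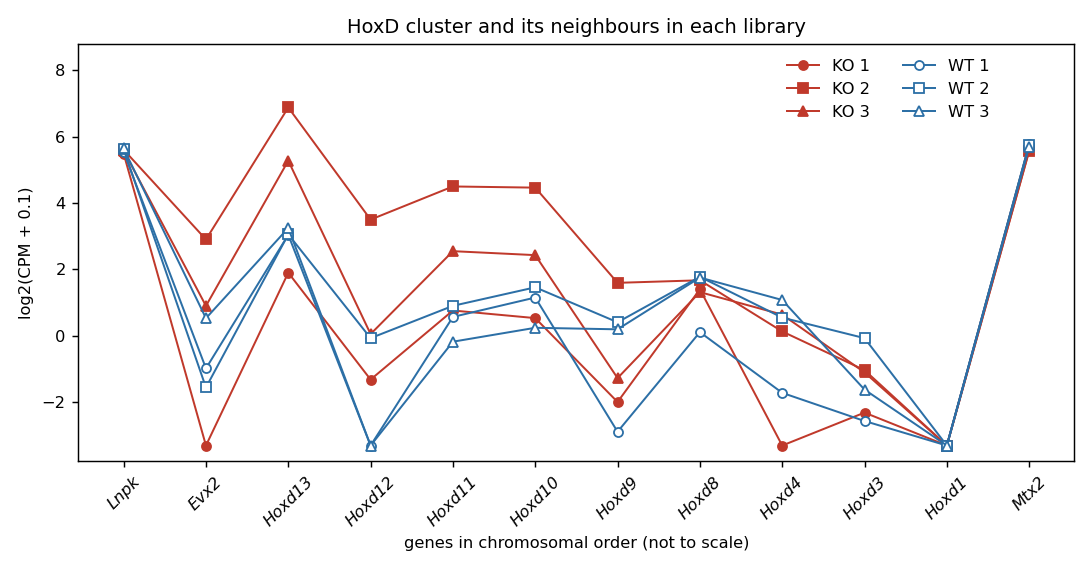
Level of Evx2, the HoxD genes and the flanking genes in each library as log2(CPM + 0.1), in chromosomal order and not to scale. Filled red symbols are knockout libraries and open blue symbols wild-type libraries. KO 2 lies above the other 5 libraries from Evx2 to Hoxd9 and close to them at Hoxd8 and at the flanking genes.

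Summed over paralogues 9 to 13, HoxD had 6.99, 177 and 50.9 CPM in knockout libraries and 11.6, 14.7 and 12.3 CPM in the wild type. The means were 78.2 ± 88.0 CPM in knockout libraries and 12.9 ± 1.59 CPM in the wild type (± SD, each n = 3). Without knockout replicate 2 the knockout mean was 29.0 CPM, from libraries at 6.99 and 50.9 CPM. Knockout replicate 2 alone gave 3215 of these reads, with an exact 95% Poisson interval of 3105 to 3328 that covers counting error only. HoxD made up 25.3% of all Hox reads in that library, 1.72% and 9.65% in the other knockout libraries and 2.16% to 3.45% in the wild type. Markers of cell types were read in the same library. Colon epithelium summed to 6932 CPM there, within the range of the other libraries, and the fibroblast list to 2224 CPM, beside 2199 CPM in knockout replicate 3. The 9 squamous genes summed to 67.0 CPM there, above the 37.9 and 31.0 CPM of the other knockout libraries and within the 38.6 to 122 CPM of the wild type. Of them, Krt14, Krt13 and Dsg3 were at their highest in knockout replicate 2, at 23.9, 13.7 and 13.7 CPM, and Krt5, Trp63 and Sprr1b had no read there. The part of such cells in the HoxD reads was not tested. In the same library 3 prostate and seminal gland genes summed to 0.165 CPM.

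The 4 paralogues of group 13 behaved differently from each other. Hoxb13, at 96194316 to 96197447 on chromosome 11, had 146, 142 and 138 CPM in the knockout, against 139, 141 and 108 CPM in the wild type. Its log2 fold change was 0.13 ± 0.12, with an adjusted edgeR p of 0.70, and 0.014 without wild-type replicate 3. The lowest library was wild-type replicate 3, and the other 5 lay between 138 and 146 CPM. Hoxa13, at 52257694 to 52260880 on chromosome 6, had 8.28, 6.86 and 9.51 CPM in knockout libraries and 5.97, 10.4 and 8.01 CPM in the wild type. Its groups covered each other fully, with a log2 fold change of 0.017 ± 0.25 whose sign turned without knockout replicate 3 or wild-type replicate 1, to -0.10 and -0.16. Hoxc13 had no read.

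Because of Hoxd13, the make-up of the group changed from library to library. As a share of the summed RPKM of group 13, Hoxd13 made up 2.06%, 41.5% and 19.0% in the knockout and 4.76%, 4.61% and 6.76% in the wild type. Hoxb13 made up 93.2%, 56.1% and 76.3% in the knockout and 91.7%, 89.5% and 87.4% in the wild type. Hoxb13 thus led group 13 in every library, also in knockout replicate 2.

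**Figure D3:**
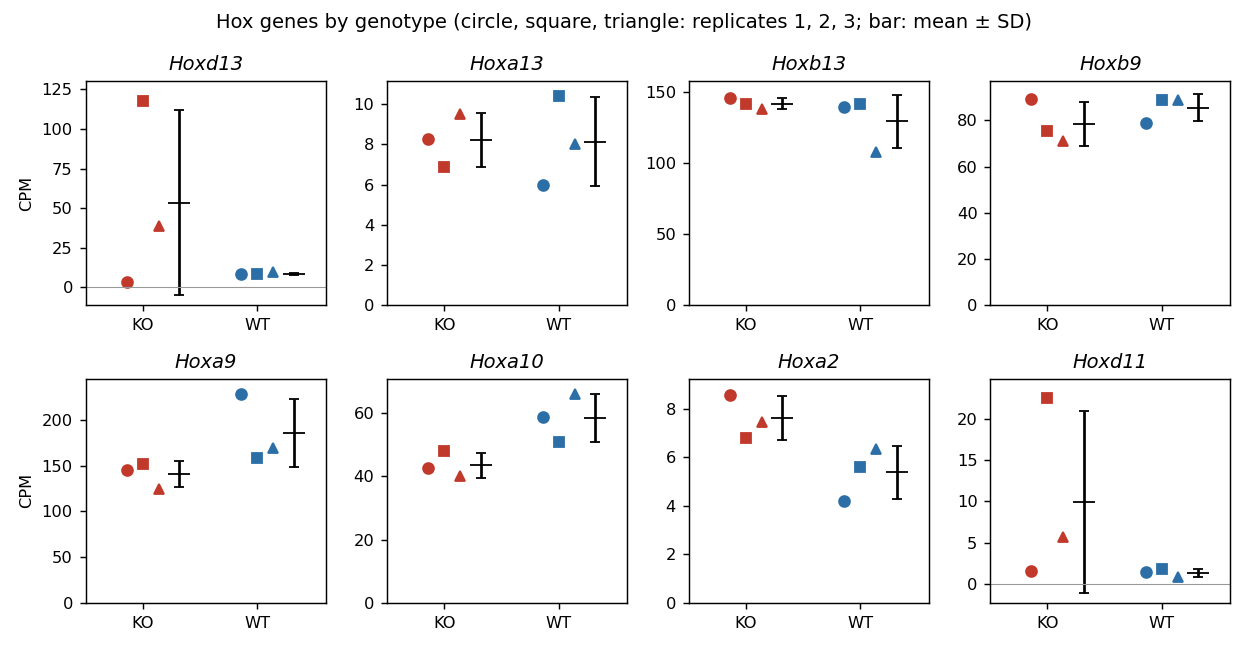
CPM of 8 Hox genes by genotype, knockout (KO, red) left of wild type (WT, blue), with circle, square and triangle for replicates 1, 2 and 3 and a bar for the mean ± SD. Hoxd13 and Hoxd11 spread widely among the KO libraries, Hoxa9 and Hoxa10 lie lower in KO without overlap, Hoxa2 lies higher without overlap, and Hoxa13, Hoxb13 and Hoxb9 overlap between the groups.

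Hoxa9 and Hoxa10 were the posterior genes whose groups separated downward. Hoxa10, which patterns the lumbar region and the reproductive tract, lies at 52231197 to 52240854 on chromosome 6. It had 42.5, 47.9 and 40.0 CPM in the knockout, against 58.7, 50.8 and 66.0 CPM in the wild type. The highest knockout library lay just under the lowest wild-type library. Means were 43.5 ± 4.02 CPM in knockout libraries and 58.5 ± 7.59 CPM in the wild type (± SD, each n = 3). The log2 fold change was -0.43 ± 0.13, with an unadjusted p of 0.0129 and an adjusted p of 0.373 by edgeR. It lay between -0.52 and -0.33 in 15 alternative settings, with an unadjusted p under 0.05 in each of the 15. Hoxa10 was also the only tested Hox gene whose difference of means exceeded the range within both genotypes.

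Hoxa9, a regulator of blood progenitors and posterior trunk, lies beside it at 52223100 to 52231089. It had 145, 152 and 125 CPM in knockout libraries and 228, 158 and 170 CPM in the wild type. Wild-type replicate 1 was far above the other libraries, and the 2 other wild-type values came close to the knockout. The log2 fold change was -0.40 ± 0.15, with an unadjusted p of 0.0354 and an adjusted p of 0.436 by edgeR, and it lay between -0.52 and -0.22 in 15 settings. Since Hoxa9 takes most of the reads of posterior HoxA, the sum of Hoxa9, Hoxa10, Hoxa11 and Hoxa13 was 217, 220.3 and 191 CPM in knockout libraries and 301, 235 and 262 CPM in the wild type. The other posterior genes of the cluster did not share the direction. Hoxa11, a gene of uterus and limb, had 21.03, 13.5 and 16.2 CPM in knockout libraries and 8.22, 15.1 and 18.3 CPM in the wild type, and an antisense transcript covers 34.98% of its exons.

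At the anterior end of HoxA, Hoxa2, a selector of the second pharyngeal arch, lies at 52162417 to 52164831. It had 8.58, 6.81 and 7.45 CPM in the knockout, against 4.19, 5.62 and 6.34 CPM in the wild type. The gap between the groups was small, and the log2 fold change was 0.50 ± 0.23, with an unadjusted p of 0.0628 and an adjusted p of 0.485 by edgeR. Hoxa6, the member of paralogues 4 to 8 with the highest RPKM, had 20.4, 23.4 and 28.7 CPM in knockout libraries and 14.6, 24.7 and 23.5 CPM in the wild type. Its log2 fold change was 0.21 ± 0.23. Hoxa3, Hoxa5 and Hoxa7 also had positive log2 fold changes, between 0.098 and 0.50, and Hoxa4 had one of -0.66, all with overlapping groups. Without wild-type replicate 1 the values of Hoxa5 and Hoxa7 turned to -0.11 and -0.022.

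Wild-type replicate 1 was the low library for much of the cluster. It had the lowest CPM in 7 of the 11 HoxA genes and in 12 of the 27 tested Hox genes, and the highest in 1, Hoxa9. Smooth muscle markers were low in the same library. The 8 smooth muscle genes summed to 1231, 736 and 869 CPM in the knockout, against 218, 700.3 and 483 CPM in the wild type. All 8 had a positive log2 fold change. Of them, 5 had an unadjusted edgeR p under 0.05, beside 6.63% of all tested genes higher at that level. None passed adjustment, with adjusted edgeR p of 0.335 to 0.894. The 6 fibroblast genes summed to 1549 to 2224 CPM in knockout libraries and to 1070.0 to 1636 CPM in the wild type. The part of these cell types in the HoxA values was not tested. The 5 distal colonocyte genes, Aqp8 and Car4 among them, summed to 240 to 402 CPM in knockout libraries. In the wild type they summed to 30.4 to 109 CPM. All 5 were higher in the knockout without overlap, beside 9.43% of all tested genes. Their adjusted edgeR p was 0.181 to 0.372, so none passed. The distal enteroendocrine genes Insl5, Pyy and Gcg summed to 39.1 to 72.9 CPM in knockout libraries. In the wild type they summed to 4.70 to 22.7 CPM. All 3 were higher in the knockout without overlap, beside the same 9.43%, with adjusted edgeR p of 0.322 to 0.409. Hoxb13 and Hoxa13, read in the same libraries, overlapped between the groups. The part of these cells, or of a site along the colon, in the Hox values was not tested.

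The posterior HoxB genes varied less within genotype than those of HoxD. Hoxb9, at 96271457 to 96276595 on chromosome 11, had 89.4, 75.2 and 71.2 CPM in knockout libraries and 78.8, 88.8 and 88.9 CPM in the wild type. Its groups overlapped, and its log2 fold change was -0.12 ± 0.12 with an adjusted edgeR p of 0.715. The median SD within genotype of Hoxb9 and Hoxb13 was 0.15 on the log2 scale, against 1.80 for the 5 posterior HoxD genes. It was 0.27 for the 4 posterior HoxA genes, of which Hoxa10 had 0.162, close to the 0.158 of Hoxb13. Between Hoxb9 and Hoxb13 the mouse cluster holds no other Hox gene. Hoxb4, a gene of the neck and of blood stem cells, had 1.54, 1.92 and 3.05 CPM in knockout libraries and 1.91, 1.42 and 2.37 CPM in the wild type, with full overlap. Hoxb2 had 0.546, 0.659 and 1.24 CPM in knockout libraries and 0.168, 1.12 and 0.519 CPM in the wild type. Hoxb5 had 0.843, 1.04 and 0.724 CPM in knockout libraries and 0.134, 0.812 and 1.04 CPM in the wild type. In both, wild-type replicate 1 was the lowest library, and neither sign held when libraries were left out. Hoxb3, Hoxb6, Hoxb7 and Hoxb8 had log2 fold changes between -0.52 and 0.26, all with overlapping groups. An antisense transcript covers 52.93% of the exons of Hoxb3.

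HoxC was read almost only in wild-type replicate 3. In that library Hoxc10, a posterior gene of the hind limb and lumbar spine at 102966796 to 102971893 on chromosome 15, had 135 reads, or 5.005 CPM. Hoxc4, Hoxc5, Hoxc6, Hoxc8, Hoxc9 and Hoxc11 had 2 to 12 reads each. Hoxc6 and Hoxc8, genes of the thorax, had 12 reads apiece. The cluster summed to 187 reads there, with an exact 95% Poisson interval of 161 to 216, and to 1.18% of the Hox reads of the library. The other 5 libraries held 1 HoxC read between them, a Hoxc10 read in wild-type replicate 1. Hotair, a long noncoding RNA read from within HoxC, had 0 reads in each knockout library and 0, 0 and 6 reads in the wild-type libraries. Hoxc5 and Hoxc10 share 166 exon bases, so reads there cannot be assigned to one of them. The edgeR filter removed every HoxC gene, so HoxC has no test between the genotypes.

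Several markers of other tissue, but not all of those listed, were also highest in wild-type replicate 3. The 12 skeletal muscle genes, a list added after the HoxC values were seen, summed to 15.3, 11.8 and 7.03 CPM in knockout libraries and to 14.1, 20.3 and 3377 CPM in the wild type. Myod1, which commits cells to skeletal muscle, had 0 reads in each knockout library and 0, 0 and 56 reads in the wild-type libraries. The 9 squamous genes summed to 31.0 to 67.0 CPM in knockout libraries and to 38.6, 61.7 and 122 CPM in the wild type. Krt5 had 0 reads in each knockout library and 3, 0 and 223 reads in the wild-type libraries, and Trp63 had 0 reads in each knockout library and 2, 0 and 175 in the wild-type libraries. Krt4, Krt6a and Krt15 were also highest in wild-type replicate 3, at 22.5, 10.2 and 38.4 CPM. Krt14, Krt13 and Dsg3 were not, at 23.2, 6.45 and 6.64 CPM there. They had 23.9, 13.7 and 13.7 CPM in knockout replicate 2. Sprr1b had no read in any library. In all, 16 genes had at least 50 reads in wild-type replicate 3 and at most 1 in each other library, Hoxc10 among them, and no other library had such a gene. The part of these tissues in the HoxC reads was not tested. Hoxb13 was at its lowest in the same library, at 108 CPM.

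**Figure D4:**
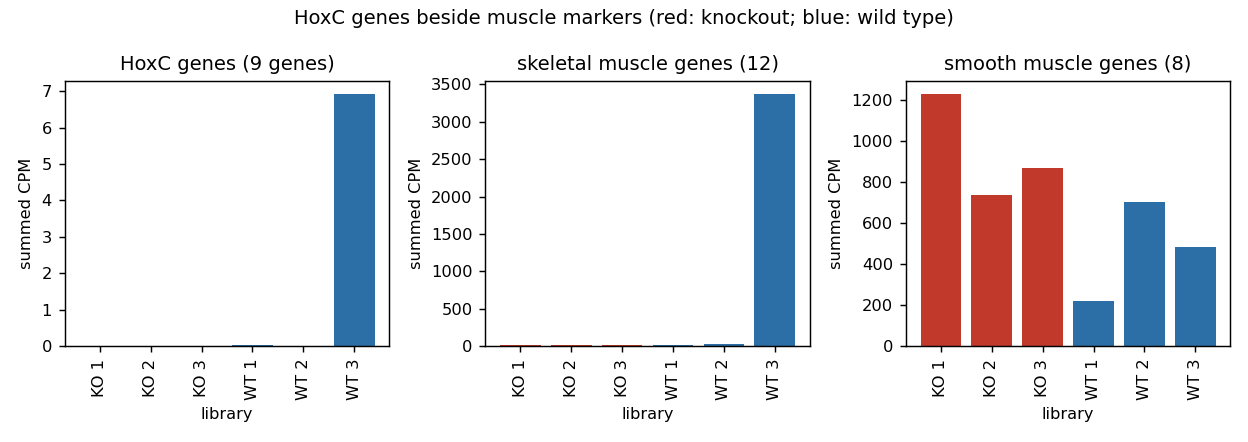
Summed CPM of the 9 HoxC genes, of 12 skeletal muscle genes and of 8 smooth muscle genes in each library, with knockout libraries (red) left of wild-type libraries (blue) and bars starting at 0. The HoxC bar and the skeletal muscle bar of WT 3 stand alone, at 6.93 and 3377 CPM, while the smooth muscle bars are lowest in WT 1.

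The spread between libraries of a genotype was set against the difference between genotypes. The wider of the ranges within a genotype was larger than the difference of the means in 26 of 27 Hox genes, all but Hoxa10, and in 14876 of all 16281 tested genes, so this count does not set Hox genes apart. The share of the sum of squares of log2 CPM that lay between the groups had a median of 15.7% in Hox genes, beside 19.8% over all tested genes. By class these medians were 32.7% for paralogues 1 to 3, 7.12% for 4 to 8 and 23.3% for 9 to 13. Hoxa10 had the highest share, 71.9%, and Hoxd13 had 22.2%. With so few libraries, spread between libraries alone also gives such shares, so they do not measure an effect of genotype. The median SD within genotype was 0.48 for Hox genes and 0.23 for all tested genes. Many Hox genes have few reads, and the part of low counts in this spread was not tested.

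Ranked against genes of like level, the widest members were all of HoxD. The SD within genotype of Hoxd13 lay at the 99.8th percentile of genes of similar CPM, that of Hoxd12 at the 99.0th. Hoxd10 lay at the 98.3rd, Hoxd9 at the 97.6th and Hoxd11 at the 97.3rd. Hoxd4, which is not a posterior gene, lay at the 97.8th. Hoxa13 lay at the 59.8th, Hoxb13 at the 61.0th, Hoxb9 at the 48.1st and Hoxa10 at the 52.6th. Hoxa11 lay at the 88.3rd, so the posterior genes covered a broad span of ranks. Knockout replicate 2 was the highest library in 5 of 5 posterior HoxD genes and in 6 of all 27 tested Hox genes. The labels give no site along the colon, so whether these libraries differ by site was not tested.

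**Figure D5:**
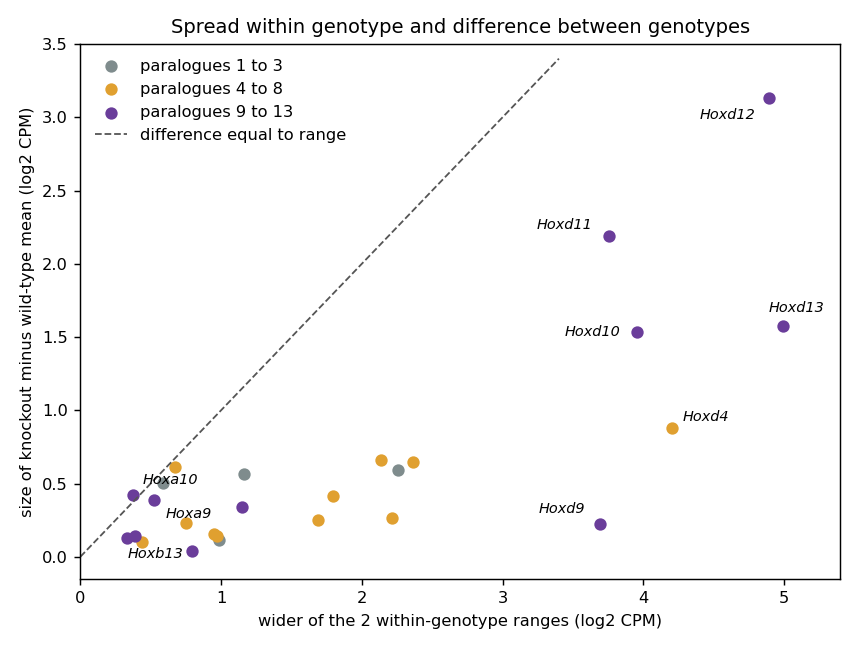
Size of the difference of mean log2 CPM between knockout and wild type against the wider of the ranges within a genotype, with a point for each tested Hox gene shown, coloured by paralogue class and a dashed line where both are equal. Hoxa10 is the only gene above the line, and Hoxd9 to Hoxd13 lie far to the right of the other posterior genes.

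No partner or regulator of Hox proteins passed the test. Pbx, Meis and Pknox proteins bind DNA together with Hox proteins. Of 9 such genes, 4 had a positive and 5 a negative log2 fold change, with a median of -0.07, and none had an unadjusted edgeR p under 0.05. Of 16 tested regulators, 3 were positive and 13 negative, with a median of -0.14 and again none under 0.05. This list holds Cdx1 and Cdx2, activators of posterior Hox genes, retinoic acid receptors, and members of the Polycomb and Trithorax complexes that keep Hox clusters silent or active. Cdx1 had 131, 85.2 and 94.5 CPM in knockout libraries and 36.0, 87.1 and 70.2 CPM in the wild type, and Cdx2 had 29.4, 15.98 and 11.997 CPM in knockout libraries and 4.70, 18.0 and 24.4 CPM in the wild type. Both were lowest in wild-type replicate 1, the library that was also low for many HoxA genes but highest for Hoxa9. Ezh2, the Polycomb methyltransferase, averaged 54.8 ± 5.52 CPM in knockout libraries and 71.0 ± 15.2 CPM in the wild type (± SD, each n = 3), with an adjusted edgeR p of 0.481. Neither Cdx gene was high or low in knockout replicate 2 alone. The part of Cdx levels in the Hox values was not tested.

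Noncoding and neighbouring transcripts of the clusters did not pass it either. Of 11 tested, 7 had a positive and 4 a negative log2 fold change, none with an unadjusted edgeR p under 0.05. Hottip, transcribed from the Hoxa13 end of HoxA, had 10.6, 6.70 and 6.62 CPM in knockout libraries and 3.09, 6.40 and 5.08 CPM in the wild type, without overlap and with an adjusted edgeR p of 0.492. Halr1, from the other end of HoxA, had 3.67, 3.13 and 1.40 CPM in knockout libraries and 8.49, 4.81 and 3.67 CPM in the wild type, with an adjusted edgeR p of 0.472. Hoxa11os, antisense to Hoxa11, had 64.8, 37.2 and 38.0 CPM in knockout libraries and 17.7, 43.1 and 45.04 CPM in the wild type. As for Hoxa11 itself, knockout replicate 1 was highest and wild-type replicate 1 lowest, and since the strand setting of the counting is not given, their reads cannot be told apart where the transcripts overlap.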

How the data were processed

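RNA of 6 colon tumour samples was sequenced. Trizol extraction and removal of ribosomal RNA came before library preparation, per the labels' protocols. The authors deposited raw counts of reads, with 1 table for each sample and 1 row for each gene symbol. The submitters' processing notes list mm10, TopHat2, edgeR and limma. Not given in the sources used here are the counter, its strand setting, how it treated reads with several hits, and its annotation.

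CPM, RPKM and all tests were computed here from the deposited counts, with R 4.3.3 and edgeR 4.0.16. The quasi-likelihood test used TMM factors (0.977 to 1.02), filterByExpr and the genotype as the only term, two-sided, with Benjamini-Hochberg adjustment over 16281 genes and a threshold of 0.05. The SE is the log2 fold change divided by the square root of F. Spread used log2 CPM with a prior count of 2. DESeq2 1.42.0, limma-voom (limma 3.58.1), other scalings, filters, a replicate block and left-out libraries were alternatives, and the script was tested on simulated data. The labels do not say whether replicate numbers pair the samples. Deviations of same-numbered libraries had correlations of -0.175 to -0.0734, which with so few libraries cannot settle it. Every library pair of a genotype differed by more than sampling noise, so none was treated as 1 library deposited again. This does not show that the samples came from separate mice.

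Members and gene lists were chosen with earlier results of these data known. The skeletal muscle and flanking gene lists were added after the HoxC and HoxD values were seen. Per-library values are given for paralogue group 13, for genes with an unadjusted p under 0.05 or groups that do not overlap, for the 8 widest within-genotype ranges and for the 3 highest RPKM of each cluster, and a few others were picked after their values were seen. Single values of 1 member are not reported here. Positions and exon lengths are from GENCODE M21, and promoters from RefSeq. A count of 0 allows up to 3 counts, and floors and intervals cover counting error only. The prior count, filter and pseudocount of 0.1 in the HoxD plot affect low genes most.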

Additional observations from a re-analysis of the deposited data

How the results depend on the processing

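No Hox gene passed the adjusted edgeR test in any edgeR setting run. DESeq2 called 238 genes higher and 90 lower in the knockout, among them 1 Hox gene. That gene was Hoxd11, with a log2 fold change of 2.93 and an adjusted p of 0.0122 by DESeq2. Limma-voom left 2 Hox genes at an unadjusted p under 0.05, Hoxa9 and Hoxa10. With 1 library left out at a time, that count was 2 to 5, beside 1107 to 1904 of all genes, genes past the test and higher in the knockout were 0 to 1, and Hox genes without overlap were 1 to 5 higher and 2 to 4 lower in the knockout, beside 13% to 16.6% and 12.2% to 16.6% of all genes. Median log2 fold changes were 0.77 to 2.81 for HoxD, -0.022 to 0.29 for HoxA, -0.089 to 0.31 for HoxB, 0.019 to 0.53 for paralogues 9 to 13 and -0.14 to 0.31 for paralogues 4 to 8. Of the 27 tested Hox genes, 12 turned sign in these fits, over -1.27 to 0.052 for Hoxd4, -1.72 to 1.07 for Hoxd9, -0.16 to 0.23 for Hoxa13, -0.010 to 1.24 for Hoxb2, -0.14 to 0.39 for Hoxb4, -0.089 to 0.87 for Hoxb5, -0.11 to 0.35 for Hoxa5, -0.022 to 0.19 for Hoxa7, -0.12 to 0.40 for Hoxb3, -0.79 to 0.31 for Hoxb6, -0.14 to 0.65 for Hoxb7 and -0.31 to 0.33 for Hoxd8. A further setting, chosen after seeing the data, left out both knockout replicate 2 and wild-type replicate 3. There, 2 Hox genes and 1117 of all genes had an unadjusted edgeR p under 0.05. In that setting 3 Hox genes were higher and 4 lower without overlap, beside 19.8% and 19.4% of all. The HoxD median was 0.50, but Hoxd9 was no longer tested, so it covers fewer genes than the HoxD medians above. Whether the replicate numbers pair the samples is not known. With the replicate number as a block, 4 Hox genes and 1293 of all genes had an unadjusted edgeR p under 0.05, and 0 passed. The cause of these shifts was not tested. The 9 HoxC genes, Hoxd3, Hoxb1 and Hoxd1 had too few reads to be tested.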
